A study of Homo sapiens with 2 samples.

Results

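The SLCO genes encode the organic anion transporting polypeptides (OATPs), and 6 of them, SLCO4A1, SLCO3A1, SLCO1B3, SLCO2A1, SLCO2B1 and SLCO4C1, were examined in oral squamous cell carcinoma (OSCC) cells that did or did not carry a DLEU1 vector. Their members were all non-control probes whose gene name in the array files equalled 1 of these symbols, which gave 8 probes among 58201 probes with 43317 gene names. The family was chosen by the measured difference of SLCO4A1, whose signal was much lower in the DLEU1 vector cells, so that difference is given as a description and was not tested. Ca9-22 cells, an OSCC line, were infected with a lentivirus that carried the long noncoding RNA DLEU1 or with a control vector. Both groups were grown in RPMI-1640 with 10% heat-inactivated fetal bovine serum at 37 degrees and 5% CO2, and both were kept under 6 mg/ml blasticidin for 2 weeks. The insert was a full-length DLEU1 cDNA cloned from another OSCC line, KON. From each group, 100 ng of total RNA was labelled with Cy3 and read on 1 Agilent array.

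OATPs sit in the plasma membrane and carry large amphipathic organic anions into cells, without using ATP. Their cargo includes bile acids, steroid sulfates, thyroid hormones, prostaglandins and many drugs. Some members are largely limited to 1 organ, such as the liver form OATP1B3, while others, such as OATP3A1 and OATP4A1, are found in many tissues and in tumours of epithelial origin.

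With 1 array per group there were no replicates, so no p-value or replicate SD could be given, and this number of arrays sets the precision. By the flags of the scanner software 27731 probes (control vector) and 27969 probes (DLEU1 vector) were well above background, here called detected, and 26279 (45.2%) were so on both. Levels are log2 processed intensities minus the 75th percentile of the array, and each difference is that of the DLEU1 vector array less that of the control vector array. Replicated spots of 282 probes gave an SD of 0.0800 for the difference of a single spot. For the 10 replicated probes within 2-fold of the dim SLCO4A1 signal it was 0.205. These SDs hold spot-to-spot error only and not the variation between cultures. The DLEU1 probe A_23_P151337 was higher by 2.74 with the DLEU1 vector, in the direction of the labels, and the other detected DLEU1 probes, A_19_P00321577 and A_21_P0007910, were higher by 0.85 and 0.54, both within 2-fold. In a strip of the DLEU1 vector array with 517 probes, 43.7% of the probes detected with the control vector were at least 2-fold lower, against 12.2% outside it, and no SLCO probe (0 of 8) lay there. All 12 squamous epithelium markers, such as KRT5 and TP63, were detected on both arrays. The median difference of the 12 was 1.84. Of these 12 markers, 9 were at least 2-fold higher with the DLEU1 vector, beside 9.18% of all gene names detected on both arrays. TP63 (0.96), SFN (0.002) and EPCAM (-0.78) lay within 2-fold, and the CDH1 probe (1.04) lay in the strip.

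Each SLCO probe was a single spot of 60 bases, so the sequences show what each value measured. Those of the detected probes are printed because the results rest on them, 5′ to 3′ and in lower case, with the first 30 bases only where the probe lay late in its transcript. No base is set in capitals.
SLCO4A1 A_23_P5903: tatttatggacacacagtttgcatcagaac
SLCO3A1 A_24_P336276: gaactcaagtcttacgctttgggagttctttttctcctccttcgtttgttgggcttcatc
SLCO3A1 A_24_P588897: gatttcctggtaagatcattggatttacag
SLCO1B3 A_33_P3364089: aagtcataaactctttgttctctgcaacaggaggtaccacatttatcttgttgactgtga
SLCO4A1-AS1 A_33_P3381235: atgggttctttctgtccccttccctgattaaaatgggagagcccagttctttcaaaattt
The last sequence is that of SLCO4A1-AS1, a noncoding RNA read from the strand opposite to SLCO4A1. G and C made up 35% of the bases of the SLCO4A1 probe, 45% and 35% of those of the SLCO3A1 probes and 38.3% of those of the SLCO1B3 probe. Whether a probe lies in coding sequence or in a UTR was not determined here, since no annotation of the build of the files was used.

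Of the 8 SLCO probes, 4 (SLCO4A1, both probes of SLCO3A1, and SLCO1B3) were detected on both arrays. The other 4 (SLCO2A1, SLCO2B1 and both probes of SLCO4C1) were not well above background on either array. Among the 4 detected probes, 1 was at least 2-fold lower with the DLEU1 vector, 0 were at least 2-fold higher and 3 lay within 2-fold. Among all probes detected on both arrays 9.78% were lower by 2-fold or more and 8.98% were higher by as much. As the family was chosen for its lower member, nothing is read from its count against these shares.

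**Figure D1:**
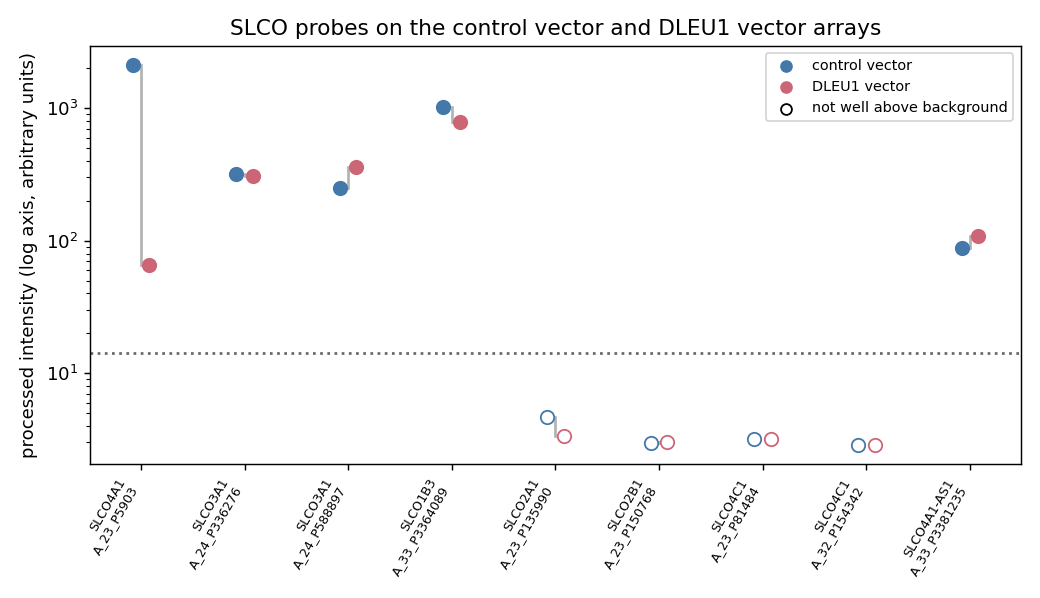
Processed intensity (log axis, arbitrary units) of each SLCO probe and of SLCO4A1-AS1, 1 point per array. The SLCO4A1 points lie far apart (2119 and 65.0), the other detected pairs lie close together, and the 4 open pairs between 2.87 and 4.69 lie under the dotted line at the lowest detected signal (14.2). Dim spots hold a surrogate value given by the scanner software.

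SLCO4A1 encodes OATP4A1, a broadly expressed carrier of thyroid hormones, prostaglandins and oestrogen conjugates. Its probe, of transcript NM_016354, lies on the plus strand at chr20:61303447-61303506 (hg19) and begins at base 2575 of that transcript. The processed intensity was 2119 in control vector cells and 65.0 in DLEU1 vector cells. The error that the scanner software gave for these spots was 212 and 7.15. SLCO4A1 was thus a bright spot on the control vector array and a dim but detected spot on the DLEU1 vector array.

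On the log2 scale SLCO4A1 went from a level of 3.13 in the control vector cells to -1.86 in the DLEU1 vector cells, a difference of -4.99 or 31.7-fold lower. No spread between cultures was available to set this difference against. In a bulk sample such as this, fewer cells with the RNA and less RNA per cell cannot be told apart. Before any background was taken off, the spot had a mean signal of 2380 over a local background of 25 with the control vector, and 106 over 22 with the DLEU1 vector. The raw signals alone were thus 22.5-fold apart. The pixels of the spot had an SD of 358 on the control vector array (42 pixels) and 32.7 on the DLEU1 vector array (43 pixels), so a similar number of pixels was read on both.

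The place of the SLCO4A1 spot on the array was examined next, because many probes in the strip described above, here called damaged, had low differences. Within 6 rows and 6 columns of it, 82 other probes were detected with the control vector, whether or not they were detected with the DLEU1 vector. They had a median difference of -0.29 and a lowest difference of -3.51. The SLCO4A1 difference was therefore lower than that of each of these neighbours. Of the 26279 probes detected on both arrays, 4 had a lower difference than SLCO4A1, and all 4 lay in this strip. The strip is marked here by its low differences, so leaving these 4 probes out rests on the same values. Without the strip, SLCO4A1 had the lowest difference of the 13758 genes with a current symbol, which is the order used to choose it and is no further evidence.

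**Figure D2:**
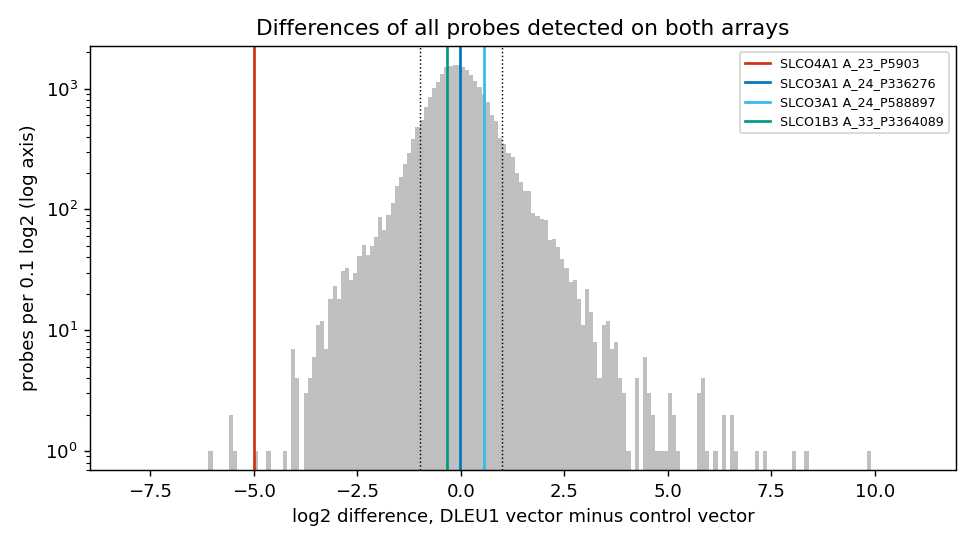
Histogram of the log2 difference (DLEU1 vector minus control vector) of all 26279 probes detected on both arrays, with the number of probes per bin on a log axis and dotted lines at 2-fold. The SLCO4A1 line at -4.99 lies in the far lower tail, and the lines of SLCO1B3 (-0.34) and SLCO3A1 (-0.03 and 0.56) lie within the body of the histogram.

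The genes next to SLCO4A1 in this order were FOSL1, which encodes an AP-1 transcription factor subunit, with -4.05, NRG1, which encodes an ERBB receptor ligand, with -4.04, and CDC45, which encodes a DNA replication factor, with -3.76. FOSL1 went from a level of 4.14 to 0.09 and NRG1 from 3.67 to -0.37, with -4.07 for the other NRG1 probe. The likeness is that of a single difference over 2 arrays.

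The size of the SLCO4A1 difference depended on how the background was handled. With the normexp background correction, which adds an offset of 50 and so compresses dim signals, the difference was -4.10 or 17.2-fold lower. With the spike-in RNA probes set equal on both arrays it was -5.39 or 41.8-fold lower. SLCO4A1 was lower under all 10 alternatives tried, although the omission of the strip could not change its value. A filter that asked for an intensity of 100 on both arrays removed the probe, as its signal with the DLEU1 vector was 65.0.

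SLCO3A1 encodes OATP3A1, a widely expressed carrier of prostaglandins and thyroid hormone, and was read by 2 probes of transcript NM_013272. The upstream probe A_24_P336276 starts at base 1902 of the transcript and its coordinates span chr15:92694193-92705993 (hg19, plus strand), so the 60 bases cross an intron. The downstream probe A_24_P588897 starts at base 5031 and lies at chr15:92709063-92709122. The array files list the further transcript NM_001145044 for the upstream probe only.

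For the upstream SLCO3A1 probe the processed intensity was 320.0 in control vector cells and 306 in DLEU1 vector cells, with software errors of 32.2 and 30.8. Its difference of -0.03 was smaller than the spot SD and was positive with loess (0.03) and with the 75th percentile over detected probes (0.08). It was -0.42 with the spike-in probes set equal, which exceeds the spot SD. For the downstream probe the intensity was 249 in control vector cells and 357 in DLEU1 vector cells, with errors of 25.1 and 35.9. The downstream difference was 0.56 or 1.47-fold higher, from 0.16 with the spike-in scaling to 0.67 with the 75th percentile over detected probes. The probes of SLCO3A1 thus gave different values, apart by 0.59. The spot SD of 0.0800 is that of a single difference, and a gap between probes holds the error of each. Neither probe reached 2-fold. With 1 spot for each probe, the part of a single faulty spot in this gap was not tested.

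SLCO1B3 encodes OATP1B3, which takes bile acids, bilirubin conjugates and drugs into hepatocytes and of which a shorter form is known from tumours. Its probe, of transcript NM_019844, lies at chr12:21036476-21036535 (hg19, plus strand) and starts at base 1862. The processed intensity was 1016 in control vector cells and 785 in DLEU1 vector cells, with errors of 102 and 78.6. SLCO1B3 was thus bright on both arrays, and its level went from 2.07 to 1.73.

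The SLCO1B3 difference was -0.34 or 1.26-fold lower, within 2-fold on both sides and between -0.73 and -0.22 under the other settings. It exceeded the spot SD of 0.0800, and 34.7% of all detected probes had a lower difference. The differences of SLCO4A1 and SLCO1B3 lay 4.65 apart. Of 6 hepatocyte markers, ALB, TTR, FGB and CYP3A4 were not well above background on either array. SERPINA1, which many epithelial tumours also express, had a level of 2.20 on both, and APOA1 was dim (-3.06 and -3.69). The SLCO1B3 signal was therefore read in cells whose albumin and transthyretin probes gave none above background.

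**Figure D3:**
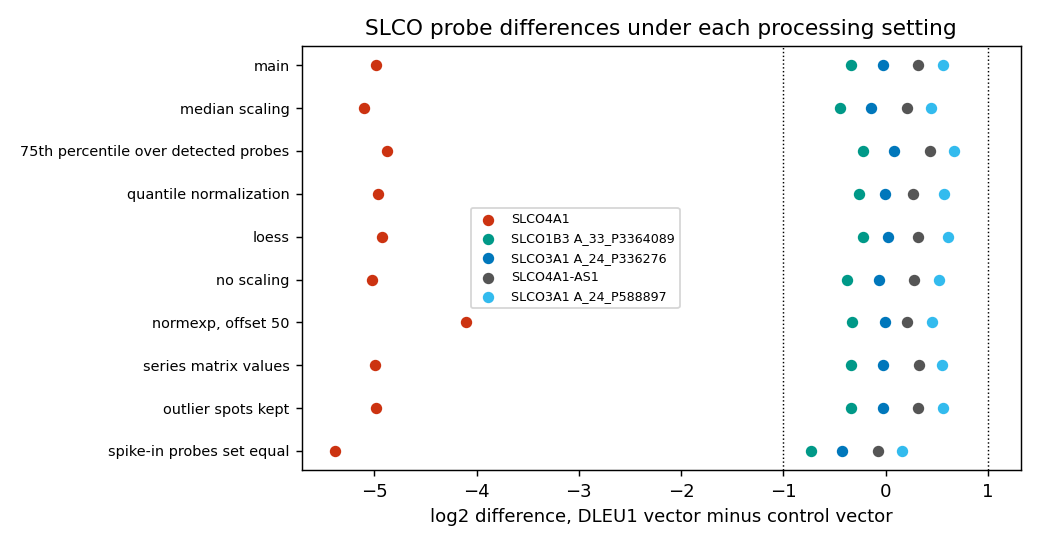
Log2 difference (DLEU1 vector minus control vector) of the detected SLCO probes and SLCO4A1-AS1 under each of 10 processing settings, with dotted lines at 2-fold. SLCO4A1 stays between -5.39 and -4.10, and every other probe stays within 2-fold on both sides of 0.

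SLCO2A1, the prostaglandin transporter, SLCO2B1, a carrier of steroid sulfates and statins, and SLCO4C1, the kidney carrier of digoxin and thyroid hormone, were dim throughout. The SLCO2A1 probe A_23_P135990 (chr3:133651781-133651840, minus strand) gave 4.69 in control vector cells and 3.36 in DLEU1 vector cells. The SLCO2B1 probe A_23_P150768 (chr11:74917103-74917162, plus strand) gave 2.99 and 2.999. Both pairs were under the lowest signal of any detected probe, 14.2 in control vector cells and 14.3 in DLEU1 vector cells.

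The array held a pair of probes under the name SLCO4C1, on opposite strands. Only the minus-strand probe has the orientation of the transcript NM_180991, so the plus-strand probe is not a reading of that transcript. A_32_P154342 (chr5:101569975-101570034, minus strand, NM_180991) gave 2.88 and 2.87. A_23_P81484 (chr5:101570685-101570744, plus strand, AF119865) gave 3.19 on both arrays. For these 3 genes no fold is given, since none of their signals was well above background. The SLCO2A1 signal in control vector cells was flagged as positive and significant, but not as well above background. A probe not well above background shows only that its signal was not detected on these arrays.

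The 6 SLCO genes outside the chosen symbols, SLCO1A2, SLCO1B1, SLCO1B7, SLCO1C1, SLCO5A1 and SLCO6A1, had no probe well above background on either array. The highest of their signals was 16.0, that of SLCO6A1, a testis member of the family, with the DLEU1 vector. SLCO4A1, SLCO3A1 and SLCO1B3 were therefore the only SLCO genes of the array detected in these cells.

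SLCO4A1-AS1 was examined because it lies beside SLCO4A1 and is transcribed from the other strand. Its probe, at chr20:61294380-61294439 (minus strand, NR_024470), is 9.07 kb from the SLCO4A1 probe. The processed intensity was 88.5 in control vector cells and 108 in DLEU1 vector cells. The difference of 0.32 was within 2-fold, and became -0.08 with the spike-in probes set equal. The antisense RNA, dim on both arrays, thus did not share the difference of SLCO4A1 in size.

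**Figure D4:**
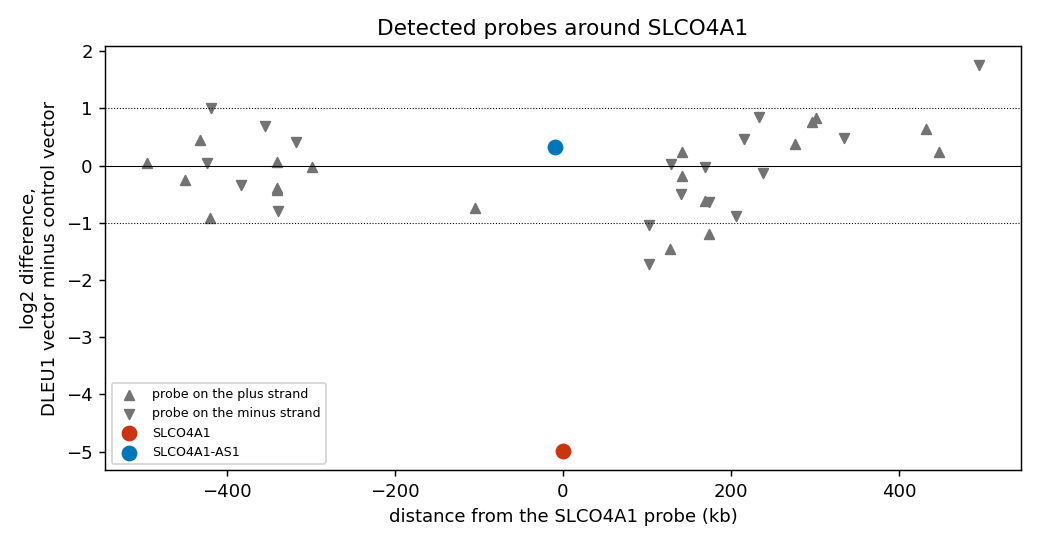
Log2 difference (DLEU1 vector minus control vector) of every probe detected on both arrays within 500 kb of the SLCO4A1 probe, against its distance in kb, with triangles pointing up for the plus strand and down for the minus strand. SLCO4A1 lies alone at -4.99, and the 38 other probes lie between -1.72 and 1.76.

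Within 500 kb on each side of the SLCO4A1 probe there were 75 other probes, of which 38 (28 gene names) were detected on both arrays. Their median difference was 0.00, with 4 probes at least 2-fold lower and 1 at least 2-fold higher, beside 9.78% and 8.98% of all probes detected on both arrays. The lower ones were both probes of the noncoding RNA LINC00659 (-1.72 and -1.04, about 102 kb away), MRGBP, a subunit of a histone acetyltransferase complex (-1.46, 128 kb away), and DPH3P1 (-1.19, 174 kb away). On the other side the nearest detected neighbour after SLCO4A1-AS1 was lnc-C20orf166-2 (-0.75, 105 kb away). Among 16 detected genes of a list of 18 protein-coding and noncoding genes of 20q13, MRGBP reached 2-fold, from 4.15 to 2.69, and the median was -0.13. This median lay between -0.53 with the spike-in probes set equal, where 5 genes were at least 2-fold lower, and 0.10 with loess, where 1 was. With quantile normalization it was 0.08, and with median scaling it was -0.25 and 2 genes were at least 2-fold lower.

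Genes that make, sense or export the compounds OATPs carry were then listed by role, each gene by its brightest detected probe. Over all 20246 gene names detected on both arrays, 9.78% were lower by 2-fold or more, 9.18% were higher by as much, and the median was -0.07.

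Prostaglandin genes were taken first, since OATP2A1, OATP3A1 and OATP4A1 carry prostaglandins. Of 22 genes 14 were detected on both arrays, with 11 below 0 and 3 above, and a median difference of -0.57. At least 2-fold lower were PTGES (-1.63), PTGS1 (-1.50), PTGES3 (-1.15) and PTGER4 (-1.07), that is, synthases, a cyclooxygenase and a receptor of prostaglandin E2. Other probes of the same genes gave other values, with -0.13 for PTGS1, 2.09 for PTGDS, a prostaglandin D2 synthase whose brightest probe gave -0.02, and 1.501 for TBXAS1, the thromboxane synthase, whose brightest probe gave 0.05. PTGS2, the inducible cyclooxygenase, had a difference of -0.58, within 2-fold. HPGD, which inactivates prostaglandins, was higher by 2.08, from a dim level of -3.31 to -1.23, and by 0.93 with normexp.

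Thyroid hormone genes had 12 of 17 members detected on both arrays, with 10 above 0 and 2 below, and a median of 0.52. At least 2-fold higher were SLC7A8, an amino acid transporter that also carries thyroid hormone (1.72), DIO2, the activating deiodinase (1.65), KLF9, a thyroid hormone target gene (1.58), and RXRB, a partner of the hormone receptors (1.12). None (0 of 12) was at least 2-fold lower. DIO2 was dim (-3.58 and -1.94) and differed by 0.63 with normexp. With the spike-in probes set equal, the median was 0.13 and 6 of the 12 lay above 0.

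Steroid sulfate and oestrogen genes had 11 of 20 members detected on both arrays, and 1, SULT1A1, was not matched to a probe. The oestrogen receptor gene GPER1 (1.69) and HSD17B2, which inactivates oestradiol (1.10), were at least 2-fold higher, and none (0 of 11) was at least 2-fold lower. The lowest of the other GPER1 probes gave 0.49. The lowest was HSD17B12 (-0.83). SULT2B1, a sulfotransferase of cholesterol and steroids, was detected with the DLEU1 vector only. Its signal there was 8.36-fold that of its undetected control vector spot, which is a ratio and not a bound. STS, the steroid sulfatase, was detected with the control vector only, at least 1.42-fold higher there. The median of the list was 0.36, and -0.04 with the spike-in probes set equal.

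SLC22 genes encode the other main family of organic ion uptake carriers, and 13 of 23 were detected on both arrays. SLC22A15 (1.30), SLC22A23 (1.12) and SLC22A11 (1.05), an organic anion carrier, were at least 2-fold higher, and none (0 of 13) was at least 2-fold lower, the lowest being SLC22A20 (-0.84). Their median was 0.34, and -0.05 with the spike-in probes set equal, where 0 were higher and 3 lower by 2-fold or more. The SLC22 family thus held members on both sides of 0. The sign of its median turned with the spike-in scaling, which moved every probe alike. The median of all probes detected on both arrays was then -0.47, against -0.07 before, so the SLC22 median lay above it in both settings.

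ABC exporters pump organic anions out of cells with ATP, opposite in direction to OATPs, and 8 of 13 were detected on both arrays. ABCC2 (-2.10), ABCC3 (-1.83) and ABCG2 (-1.34) were at least 2-fold lower and ABCC10 (1.04) at least 2-fold higher, with a median of -0.53. All 3 lower genes were dim, with control levels from -2.23 to -1.53, and with normexp their differences were -0.85, -0.73 and -0.40, so that no gene of the list (0 of 8) reached 2-fold. ABCC4, which exports prostaglandins, had a difference of -0.41. ABCB4, a phospholipid exporter, was detected with the DLEU1 vector only, at least 1.96-fold higher.

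**Figure D5:**
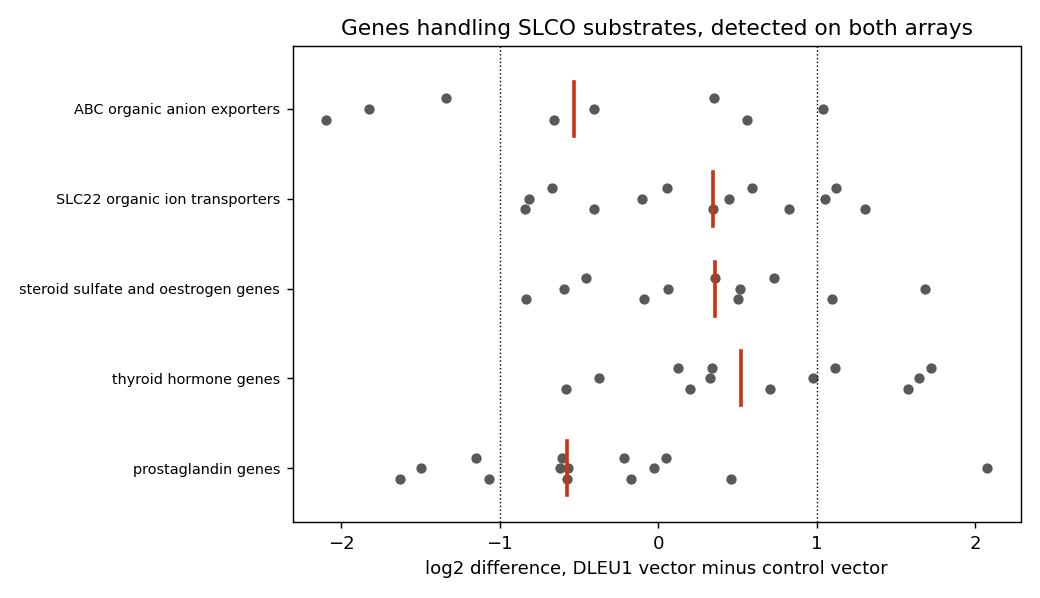
Log2 difference (DLEU1 vector minus control vector) of each listed gene detected on both arrays, 1 point per gene, with a red bar at the median of the list and dotted lines at 2-fold. The medians run from -0.57 (prostaglandin genes) to 0.52 (thyroid hormone genes), and every list holds points on both sides of 0.

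Transcription factors known to regulate transporter genes had 7 of 12 members detected on both arrays, with a median of 0.50. FOXA2, a liver factor, had a difference of -1.13, and of -0.55 with normexp. Of the 81 list genes detected on both arrays, 21 were at least 2-fold different. Among all gene names detected on both arrays, 9.78% were lower and 9.18% higher by as much. Under all 9 other settings 7 of the 21 (PTGS1, PTGES, PTGES3, SLC7A8, KLF9, GPER1 and MRGBP) stayed past 2-fold. The share of all genes that stayed so was not computed.

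Markers of other cell types were read beside these values. Of 8 fibroblast markers, COL1A2, COL3A1, DCN, PDGFRA and POSTN were not well above background on either array, and LUM was detected with the DLEU1 vector only. COL1A1 was higher by 3.99, from 0.47 to 4.47, and PDGFRB, dim on both arrays (-3.51 and -3.84), had a difference of -0.33. Of 4 endothelial markers PECAM1 and KDR were not well above background, and CDH5 had a difference of -0.59. The brightest VWF probe was higher by 3.70, and the other detected VWF probe differed by -0.07. Of 5 leukocyte markers with a probe 4 were detected on both arrays and dim, with PTPRC at -1.74 and -1.28. The part of other cells in the SLCO values was not tested.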

How the data were processed

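RNA of both groups was hybridised to SurePrint G3 Human GE v3 arrays (1 colour). The deposited intensity values are processed signals. Per the file headers, the Agilent software (Feature Extraction, release 10.7.3.1) took off background and gave dim spots a surrogate value, without normalizing between arrays. The authors' series values are the same intensity rounded (difference at most 0.497%, column medians 14.3 and 15), on a linear scale without centring. Positions are on hg19. Samples were grouped by their vector label. The members and gene lists were chosen with earlier results of these data known.

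Control spots and 84 (control vector) and 103 (DLEU1 vector) outlier spots were left out, and no spot was saturated (0). Log2 signals were averaged over the spots of a probe, and the 75th percentile of the array was taken off (7.92 and 7.88). A probe was detected where most of its spots were well above background. For probes detected on 1 array only, the fold is a bound, taken against the lowest detected signal of the dim array. Where the signal of the probe there was greater, as for SULT2B1, the fold is the ratio to that signal. Differences of at least 2-fold were counted, without tests. Genes named were all SLCO members, DLEU1, list members past 2-fold (up to 4 each way) or else the extremes, the nearest detected neighbours of SLCO4A1, and the genes next to it in order. Other genes named were chosen after their values were seen. Some genes that this rule would name are not reported here. Of 131 list entries 130 matched a probe by current symbol. Python 3.11.15 (pandas 2.3.3, numpy 2.4.6, matplotlib 3.10.9) and limma 3.58.1 in R 4.3.3 were used, and the counting was tested on simulated data. Alternatives were scaling by the median, by detected probes, by quantiles, by loess (span 0.3) or not at all, normexp (offset 50), the series values, kept outlier spots, other filters, and thresholds of 1.5-fold and 3-fold.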

Additional observations from a re-analysis of the deposited data

How the results depend on the processing

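SLCO4A1 was lower under all 10 alternatives, with differences of -5.10 after scaling by the median, -4.88 after scaling by detected probes, -4.10 with normexp and -5.39 with the spike-in probes set equal, and within the spot SD of its reported value under the other 6. Among these 6, the omission of the damaged strip could not change the value, as the probe lay outside it. The series values are the same intensity rounded, so little change was possible there. Of the 10 alternatives, the scaling by 8 E1A spike-in probes and the omission of the damaged strip were added after the data had been seen. The count of SLCO probes at least 2-fold lower was 1 throughout, except 0 where both arrays had to reach a signal of 100. None (0) was at least 2-fold higher under any of them. Median scaling, detected-probe scaling and spike-in scaling moved the median of all probes by -0.11, 0.11 and -0.40. Over all probes, 2571 were lower and 2360 higher, against 1970 higher and 3200 lower with median scaling, 2795 and 2041 with detected-probe scaling, 2616 and 2139 with loess and 1254 and 5659 with the spike-in probes. Higher probes numbered 1329 with normexp, 5537 without a filter on dim probes (5008 lower), 1226 at a signal of at least 100, 3796 with a positive and significant signal, 4772 at 1.5-fold (5832 lower) and 958 at 3-fold (855 lower). The cause of these shifts was not tested. No paired analysis was possible because each group had 1 array, and for the same reason no array could be left out in turn. Signals near 14.2 limit what could be detected.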
